A study of Mus musculus with 2 samples.

Results

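Interleukin-1 (IL-1) signalling and the inflammasome were followed through 9 genes: the ligand Il1b, its antagonist Il1rn, the receptors Il1r2, Il1rap and Il18rap, and the inflammasome genes Nlrp3, Casp1, Casp4 and Pycard. The genes were chosen by name and function, with no threshold on their values, but earlier results of these data were known. The study of these libraries itself names Il1r2, and Cd14 from a gene list used below, among genes downregulated in APP/PS1 neutrophils. Counts of members or listed genes that differ are thus not those of genes chosen blind. All 9 members were present among the 32285 genes of the deposited feature table. The data were 2 droplet single-cell RNA libraries of blood neutrophils, 1 from C57BL/6J wild-type (WT) mice and 1 from APP/PS1 mice, a transgenic model of Alzheimer's disease that carries mutant human amyloid precursor protein and presenilin genes. The study used 7-month-old female mice and pooled the cells of 3 mice, no treatment is labelled, and the labels do not separate the mice of a pool, so that there is 1 library per genotype, no replicate error and no test. The transgene promoter and the APP/PS1 strain background were not given in the sources used here. The values are unique molecular identifiers (UMIs, 1 per captured transcript molecule), summed over the cells of a type and scaled to the total UMIs of those cells as CPM, the usual scale of counts per library size. Intervals of UMI levels are exact Poisson intervals at the 95% level (conditional on the summed UMIs for a ratio). Intervals of shares of cells are exact binomial (Clopper-Pearson) intervals over the cells of 1 library, which are not replicates. Both kinds cover counting error only and say nothing about the spread between mice.

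IL-1β is made as an inactive precursor and is released after cleavage by caspase-1, the protease of the inflammasome. NLRP3 is the sensor that starts assembly of this complex and ASC, the product of Pycard, is the adaptor that joins sensor to protease, while mouse caspase-11, the product of Casp4, acts in the non-canonical branch that responds to bacterial lipopolysaccharide inside the cell. Outside the cell, IL-1β signals through its type 1 receptor together with the accessory chain encoded by Il1rap, the antagonist encoded by Il1rn occupies that receptor without signalling, and the decoy receptor encoded by Il1r2 binds IL-1β but has no signalling domain. Il18rap encodes the accessory chain of the receptor for IL-18, a relative of IL-1β that is also processed by caspase-1. Neutrophils are short-lived phagocytes of the blood and are known as a source of IL-1β and of the decoy receptor.

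The WT library held 17123 cells and 92458623 UMIs and the APP/PS1 library 17645 cells and 84870864 UMIs, of which 14564 and 15208 cells passed the filters. Although the labels name neutrophils, marker genes placed 5861 WT and 6789 APP/PS1 cells in neutrophil clusters, and the rest in clusters of monocytes, lymphocytes, basophils, plasma cells, erythroid cells and platelets. A further 1718 and 2794 cells carried neutrophil markers together with platelet transcripts and were kept apart as platelet-marked neutrophils. Of the kept barcodes, 63 occurred in both libraries, and leaving those cells out left the neutrophil log2 ratio of Il1r2 at -0.65. Neutrophil transcripts were found in every cell type: S100a8, an abundant neutrophil gene, reached 4724 CPM in B cells of WT and 2408 CPM in those of APP/PS1, against 66914 and 54612 CPM in neutrophils. For each gene the level that this free RNA alone would give was therefore computed from S100a8 and S100a9 in the same cells and library, and is called the free-RNA level below, although free RNA and droplets that also held a neutrophil cannot be told apart by it.

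The members lie in small groups in the mouse genome (mm10, GENCODE M21). Il1r2 (chr1:40074079-40125231, plus strand, up to 9 exons) and Il18rap (chr1:40515362-40551705, plus strand, up to 13 exons) share a receptor cluster on chromosome 1, Casp1 (chr9:5298517-5307265) and Casp4 (chr9:5308828-5336783) are adjacent on the plus strand of chromosome 9, and Il1rn (chr2:24336853-24351494, plus strand) and Il1b (chr2:129364570-129371139, minus strand, 7 exons) are both on chromosome 2. Il1b is overlapped by the antisense gene Il1bos, Il1rap by the antisense gene Gm20319 and Pycard by the opposite-strand entry Gm45205. Il1rap lies at chr16:26581704-26730117, Nlrp3 at chr11:59541568-59566956 and Pycard at chr7:127989708-127993867. Promoter windows of RefSeq for Il1b, Il1r2 and Casp4 (GRCm38.p6, 250 bases before to 50 after a start site, 5′ to 3′ on the gene's strand) are shown because they belong to the ligand with the highest count, to the receptor that differed between the libraries and to the caspase whose window held NF-kB letters. Capitals mark every match to 6 letter patterns searched on both strands: GGGNNTTTC for NF-kB, TGANTCA for the factor AP-1, TTGCNNAA for C/EBP factors, GAGGAA for the myeloid factor PU.1, TATAAA for the core promoter box of that name and GAAANNGAA for an interferon-response element.
Il1b, chr2:129371090-129371389, minus strand: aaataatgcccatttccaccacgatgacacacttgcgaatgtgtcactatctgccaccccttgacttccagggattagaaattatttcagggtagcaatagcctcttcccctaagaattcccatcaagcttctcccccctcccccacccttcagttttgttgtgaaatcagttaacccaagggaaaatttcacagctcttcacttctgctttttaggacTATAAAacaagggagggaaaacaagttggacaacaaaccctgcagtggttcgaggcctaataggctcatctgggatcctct
Il1r2, chr1:40085843-40086142, plus strand: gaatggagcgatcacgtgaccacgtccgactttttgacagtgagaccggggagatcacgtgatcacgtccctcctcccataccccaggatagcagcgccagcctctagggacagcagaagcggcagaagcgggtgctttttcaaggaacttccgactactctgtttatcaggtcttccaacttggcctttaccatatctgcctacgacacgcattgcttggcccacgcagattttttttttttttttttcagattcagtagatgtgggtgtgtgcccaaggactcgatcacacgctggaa
Casp4, chr9:5308599-5308898, plus strand: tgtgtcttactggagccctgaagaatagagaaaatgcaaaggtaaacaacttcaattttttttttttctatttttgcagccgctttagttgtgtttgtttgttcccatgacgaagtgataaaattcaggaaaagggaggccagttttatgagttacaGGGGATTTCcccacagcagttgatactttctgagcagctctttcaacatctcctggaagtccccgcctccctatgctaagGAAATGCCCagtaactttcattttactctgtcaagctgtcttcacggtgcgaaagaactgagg

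The Il1b window held a TATA match 31 bases before the start and no other match. The Il1r2 window held none of the 6 patterns. That Il1r2 window lies inside the annotated gene, which starts at chr1:40074079, and the sequence at that 5′ end was not searched. The Casp4 window held NF-kB letters at -93 and, on the other strand, at -13, and an overlapping second window of the gene held the same letters, where 4.36% of the 32851 RefSeq promoter windows hold that pattern. The adjacent Casp1 window held only PU.1 letters, at -108, a pattern found in 28.3% of all windows. Of the 3 Il1rn windows, 1 held an AP-1 match at -141 (7.81% of windows) and the others, which overlap each other, share 1 run of NF-kB letters, and 1 of them also held TATA letters at 15 on the other strand. The Nlrp3 window that starts at 59542436 held PU.1 letters at 3 places and its other window none. The Pycard window held a C/EBP match at -142 (10.8% of windows) and a PU.1 match at -42. The Il18rap window held PU.1 matches at -94 and -79, and the Il1rap window held interferon-response letters at 21 (8.56% of windows). TATA letters occurred in 13.6% of windows. A match is a description of letters, and binding was not measured.

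In neutrophils, the IL-1 ligand genes were present at nearly the same level in both libraries. Il1b had 249965 UMIs and 15021 CPM (14962 to 15080) in the WT library and 306753 UMIs and 15120 CPM (15066 to 15173) in APP/PS1, a log2 ratio of 0.01 (0.00 to 0.02). The direction of so small a difference depended on the scaling and on the clustering, with log2 ratios from -0.03 to 0.02 over all alternatives tried. Il1rn had 193 CPM (186 to 199.9) in the WT library and 201 CPM (195 to 207) in APP/PS1, a log2 ratio of 0.06 (-0.01 to 0.13). Neither gene was past the fold of 0.5 on the log2 scale used here to call a difference in size, which 10.7% of the 8867 genes with at least 50 UMIs in neutrophils passed in either direction, 6.21% higher and 4.52% lower in APP/PS1.

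Il1r2 was the member that differed between the libraries in neutrophils. It had 12355 UMIs and 742 CPM (729 to 756) in the WT library and 9562 UMIs and 471 CPM (462 to 481) in APP/PS1, a log2 ratio of -0.66 (-0.69 to -0.62). It was 1 of 9 members past the fold, beside 10.7% of 8867 genes in either direction (6.21% higher, 4.52% lower). Members were thus past the fold about as often as all genes. The median log2 ratio of the 9 members was 0.06, beside a median of 0.06 over all genes. The platelet-marked neutrophils, whose cells were not in that sum, had 709 CPM in the WT library and 450 CPM in APP/PS1, a log2 ratio of -0.66 (-0.72 to -0.59), and Il1r2 was again 1 of 9 members past the fold (4.52% of 7353 genes lower, 5.64% higher, 10.2% either way). Il1r2 is overlapped by the antisense gene Gm16894, which Cell Ranger counts by strand as a separate gene and which had 174 UMIs in WT and 295 UMIs in APP/PS1 neutrophils, and by the same-strand entry Gm37347. What the overlap does to the Il1r2 count was not tested. The summed neutrophil markers were also lower in APP/PS1 neutrophils, at 159487 CPM against 187503 CPM in the WT library, and their part in the Il1r2 ratio was not tested.

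The accessory chains showed no such difference. Il1rap had 107 CPM (102 to 112) in the WT library and 114.5 CPM (109.9 to 119) in APP/PS1 neutrophils, a log2 ratio of 0.10 (0.01 to 0.19). Il18rap had 182 CPM (175 to 188) in the WT library and 164.5 CPM (159 to 170.2) in APP/PS1, a log2 ratio of -0.14 (-0.22 to -0.07). There were 6.95 Il1r2 UMIs for each Il1rap UMI in WT neutrophils (6.61 to 7.31) and 4.12 in APP/PS1 (3.93 to 4.31). The type 1 receptor Il1r1 itself had 2 UMIs in WT and 3 UMIs in APP/PS1 over all neutrophils.

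Among the inflammasome genes, sensor and protease transcripts were slightly higher and the adaptor slightly lower in APP/PS1 neutrophils as a whole, all within the fold. Nlrp3 had 384 CPM (375 to 394) in the WT library and 438 CPM (429 to 447) in APP/PS1, a log2 ratio of 0.19 (0.14 to 0.23) that lay between 0.14 and 0.24 over all alternatives. Casp1 had 35.6 CPM (32.8 to 38.6) in the WT library and 40.6 CPM (37.8 to 43.4) in APP/PS1, a log2 ratio of 0.19 (0.04 to 0.34). Casp4, at 109 CPM in the WT library and 114 CPM in APP/PS1, had a log2 ratio of 0.07 (-0.02 to 0.16) and a range of -0.02 to 0.10 over alternatives, so its direction was not fixed. Pycard was scarce in neutrophils, with 356 UMIs (21.4 CPM, 19.2 to 23.7) in WT and 360 UMIs (17.7 CPM, 16.0 to 19.7) in APP/PS1, a log2 ratio of -0.27 (-0.49 to -0.05). All 9 members had at least 50 UMIs in neutrophils.

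**Figure D1:**
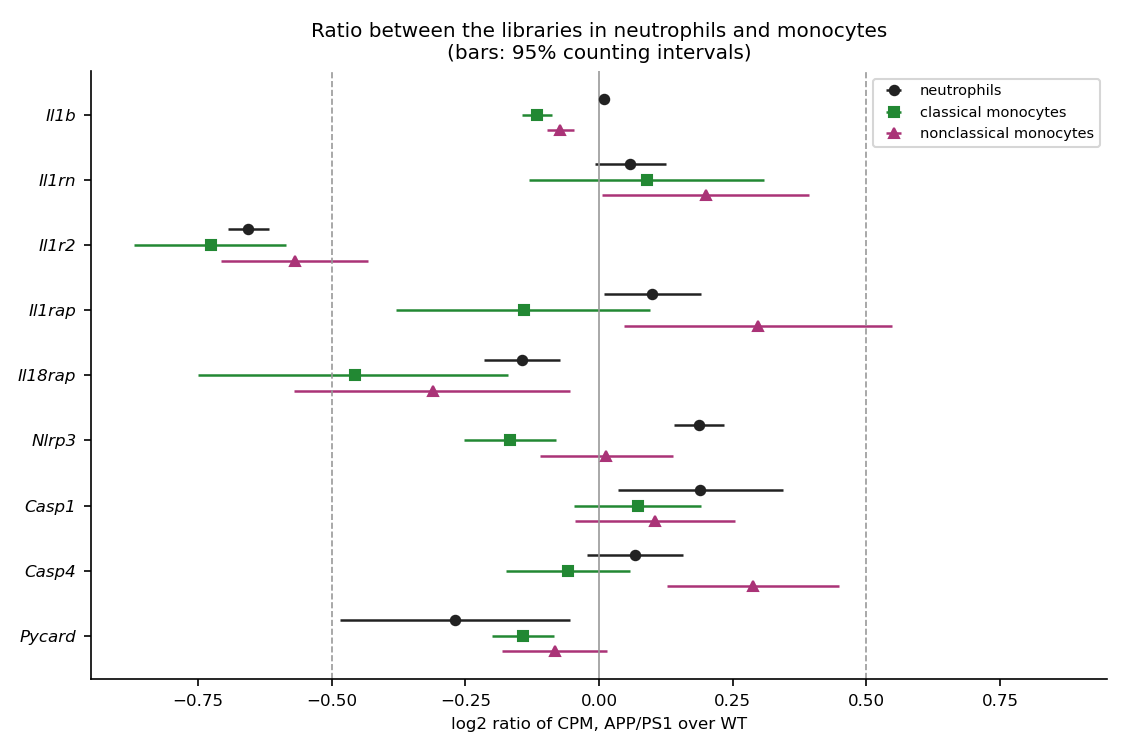
Log2 ratio of CPM, APP/PS1 over WT (x axis), for each of the 9 genes (rows) in neutrophils, classical monocytes and nonclassical monocytes. Points are ratios of summed UMIs, bars are 95% counting intervals and dashed lines mark the fold of 0.5; Il1r2 lies left of the line in the 3 cell types and the other points lie between the lines.

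The distribution over single cells was examined after thinning each cell to 1000 UMIs (2 neutrophils of the APP/PS1 library were shallower and not used). Il1b was found in 98.9% of WT neutrophils (98.7% to 99.2%) and 98.2% of APP/PS1 neutrophils (97.8% to 98.5%), and at full depth a neutrophil held a median of 38 Il1b UMIs in WT and 41 in APP/PS1, with 5th and 95th percentiles of 13 and 86 in WT and of 10 and 94 in APP/PS1. Il1b was also found in 29.4% of thinned WT and 27.7% of thinned APP/PS1 B cells, which are taken to lack it (median depths of 5001 and 5875 UMIs in B cells and of 2518 and 2625 UMIs in neutrophils). A B cell held a median of 1 Il1b UMI in either library.

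For Il1r2 the share of positive neutrophils was lower in APP/PS1. It was 50.4% in the WT library (49.1% to 51.7%) and 36.2% in APP/PS1 (35.0% to 37.3%), against 6.27% and 0.977% of B cells, and without thinning it was 79.2% and 67.3%. Cells with at least 3 Il1r2 UMIs after thinning were 5.97% of the neutrophils in WT and 1.93% in APP/PS1. The median UMIs per neutrophil were 2 in WT and 1 in APP/PS1.

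Nlrp3 was found in 30.9% of WT (29.8% to 32.1%) and 35.5% of APP/PS1 neutrophils (34.3% to 36.6%), against 1.98% and 3.26% of B cells, and without thinning in 57.9% and 64.2%. Il1rn was found in 16.7% and 17.7%, Il18rap in 16.3% and 14.5%, Il1rap in 10.5% and 10.8% and Casp4 in 9.79% and 10.3% of WT and APP/PS1 neutrophils. Casp1 (3.36% and 3.89%) and Pycard (2.25% and 1.65%) were found in few neutrophils at this depth. B cells do not serve as a background for these, since they held Casp1 in 1.32% and 4.23% of cells and Pycard in 8.25% and 11.7%, above the free-RNA level of both genes. Without thinning, the shares of neutrophils were 37.2% and 39.8% for Il1rn, 36.5% and 34.8% for Il18rap, 9.11% and 10.8% for Casp1 and 5.61% and 4.83% for Pycard. A thinned count of Il1b varied more than counting alone gives, with a variance of 4.06 times its mean in WT and 4.47 times in APP/PS1, while the ratio for the other members lay between 1.01 and 1.26.

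Detection of Il1r2 was set beside that of Nlrp3 and Il1b in the same cell. Among WT neutrophils with a thinned Nlrp3 UMI, 51.5% had an Il1r2 UMI, and among those without, 49.9%. In APP/PS1 the shares were 37.6% and 35.4%. The few neutrophils without any thinned Il1b UMI, 62 in WT and 125 in APP/PS1, held Il1r2 in 27.4% and 16.8% of cells, where those with Il1b held it in 50.7% and 36.5%. Cells of 1 library are not replicates, and these shares are given as a description.

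Neutrophils, the platelet-marked cells included, were clustered again with the members left out of the clustering features, which gave 7 clusters. Cluster 0 (3960 WT and 4275 APP/PS1 cells) was led by the immunoglobulin gene Igkc and by stefin genes such as Stfa2, cluster 1 by platelet genes, cluster 2 (780 and 1632 cells) by genes such as Icam1, Csf1 and Traf1, cluster 3 (463 and 733 cells) by interferon-induced genes such as Ifit2 and Ifit3, cluster 4 by genes such as Il2rg and Cd69, cluster 5 (196 and 244 cells) by the granule genes Camp, Ngp and Ltf of immature neutrophils, and cluster 6 by mitochondrial genes. Il1b ranged from 14475 to 20858 CPM over the clusters other than cluster 5, with its highest level in cluster 2, and was at 2680 CPM in cluster 5. Nlrp3 followed the same order at its ends, with 519 CPM in cluster 2 and 120 CPM in cluster 5. Il1rn was also highest in cluster 2 (284 CPM) and lowest in cluster 5 (119 CPM). Pycard went the other way, with 44.9 CPM in cluster 5 and at most 21.0 CPM in clusters 0 to 4, and Casp4 was highest in the interferon-induced cluster 3, at 166 CPM.

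The lower Il1r2 level in APP/PS1 was found in each of the 7 clusters. It went from 692 CPM in the WT library to 446 CPM in APP/PS1 in cluster 0, from 1014 to 577 CPM in cluster 2 and from 361 to 215 CPM in cluster 5, and the log2 ratios over the clusters ran from -0.95 in the small cluster 6 (108 WT and 86 APP/PS1 UMIs) to -0.63. Within clusters Il1b lay between -0.08 and 0.04 on the log2 ratio scale, except in the granule-gene cluster 5. There it had 3355 CPM in the WT library and 2234 CPM in APP/PS1, a log2 ratio of -0.59 (-0.66 to -0.52). When the libraries were clustered without anchors between them, the cluster with the highest granule genes held 88 WT and 173 APP/PS1 cells. Il1b there was at 1536 and 1369 CPM, a log2 ratio of -0.17 (-0.29 to -0.05). With anchors and all variable features kept, Il1b in the granule-gene cluster was at -0.76 (-0.84 to -0.69). The size of the difference thus depended on which cells were placed there. Nlrp3 in cluster 5 was at 142 CPM in the WT library and at 106 CPM in the other, a log2 ratio of -0.43 (-0.77 to -0.09) opposite to that of all neutrophils, and Casp4 at -0.62 (-1.14 to -0.10), while Nlrp3 was at 0.01 in the platelet-gene cluster 1. The small cluster 6 had ratios of -0.17 (-0.67 to 0.34) for Nlrp3 and, on 19 and 13 UMIs, of -1.17 (-2.31 to -0.08) for Casp4. Without anchors Nlrp3 was at -0.11 (-0.68 to 0.48) and Casp4 at -0.81 (-1.49 to -0.14) in the granule-gene cluster.

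**Figure D2:**
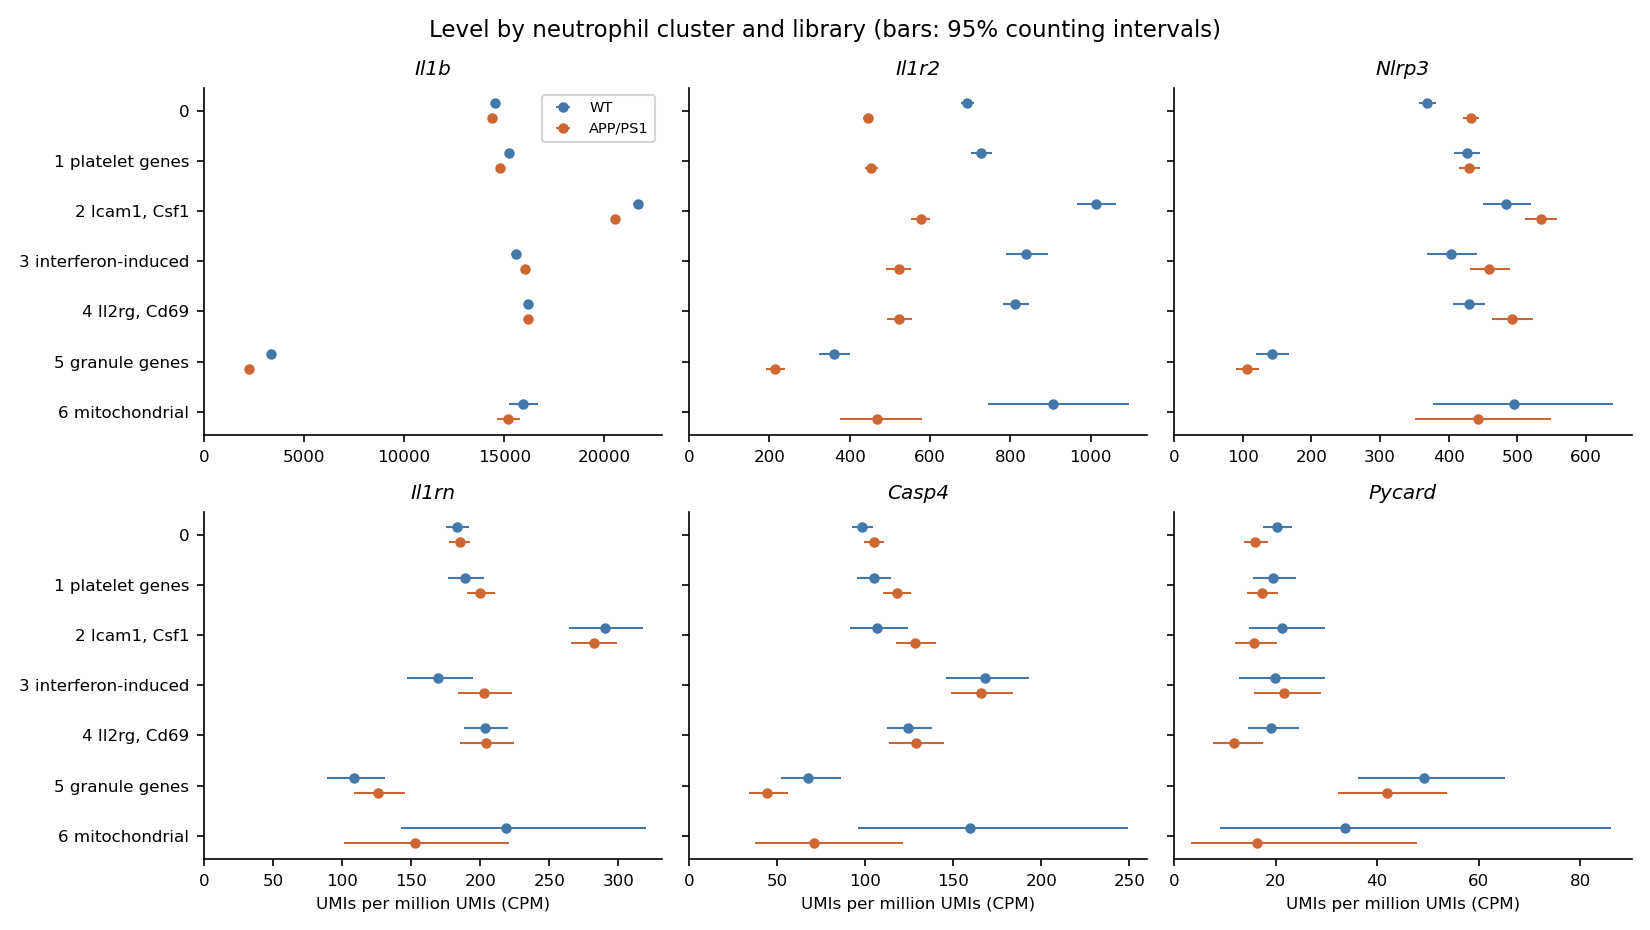
Level in CPM (x axis, from 0) of 6 genes in the 7 neutrophil clusters (rows) of each library. Points are summed UMIs and bars 95% counting intervals; Il1b is at 2234 to 3355 CPM in the granule-gene cluster and far to the right of that in the others, and the APP/PS1 point of Il1r2 lies left of the WT point in every cluster.

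The balance of ligand to antagonist transcripts was set beside that of decoy to accessory receptor. For each Il1rn UMI there were 77.8 Il1b UMIs in WT neutrophils (75.1 to 80.6) and 75.2 in APP/PS1 (72.9 to 77.5), with overlapping intervals. In the granule-gene cluster there were 30.9 in the WT library (25.5 to 37.8) and 17.7 in APP/PS1 (15.3 to 20.7), but 17.8 and 11.1 in the cluster found without anchors. With all variable features kept there were 28.5 and 14.7 in the granule-gene cluster. Classical monocytes had 64.7 in the WT library (58.7 to 71.4) and 56.1 in APP/PS1 (49.9 to 63.2), and nonclassical monocytes 61.2 (56.1 to 66.8) and 50.7 (45.8 to 56.2). Il1r2 per Il1rap was lower in APP/PS1 than in WT in each of the 10 cell types, from 4.78 to 2.62 in nonclassical and from 3.60 to 2.40 in classical monocytes. The intervals of the libraries overlapped in basophils, NK, T, B and plasma cells, and the cell types share free neutrophil RNA of the same library. UMI ratios are compared across cells here and are not molar ratios.

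**Figure D3:**
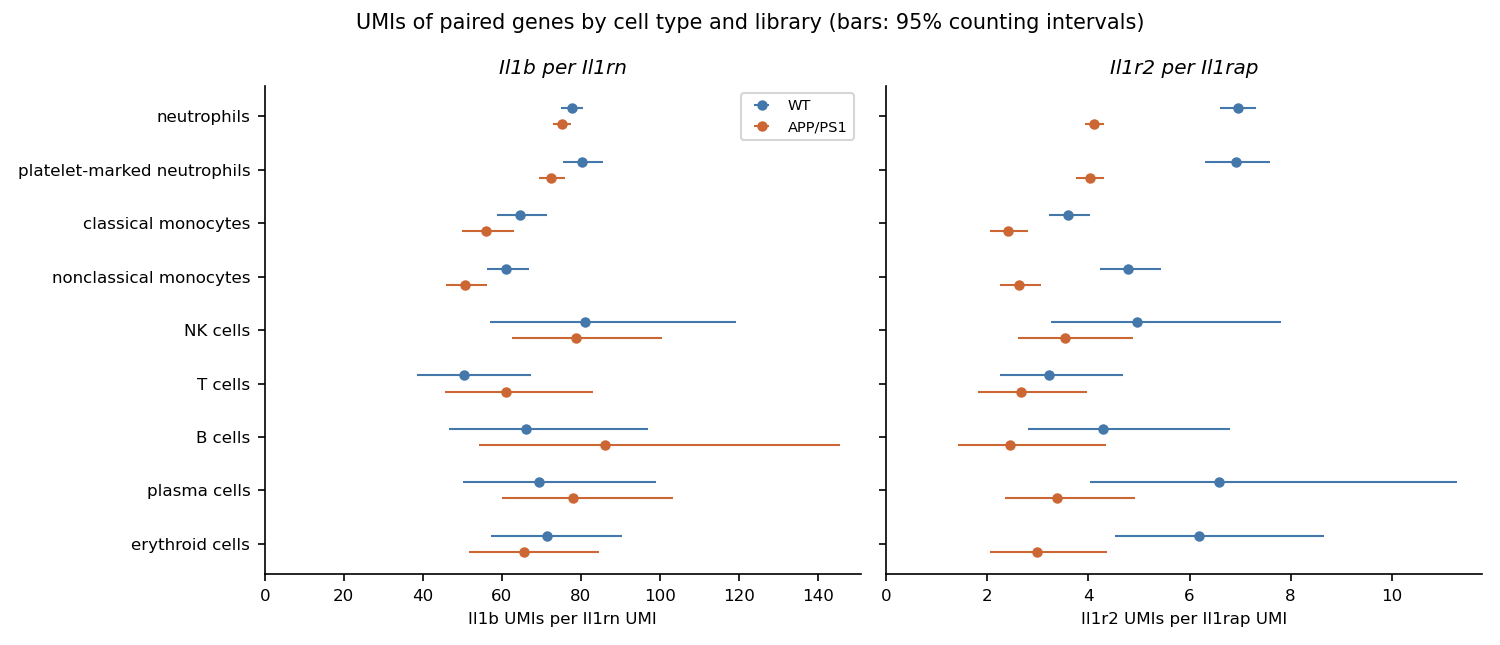
UMIs of the first gene per UMI of the second gene (x axes, from 0) for Il1b per Il1rn and Il1r2 per Il1rap in 9 cell types (rows, basophils left out for low counts) of each library. Bars are 95% counting intervals; Il1r2 per Il1rap is 6.95 in WT and 4.12 in APP/PS1 neutrophils, while Il1b per Il1rn is 77.8 and 75.2.

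Monocytes carried another set of these transcripts. In classical monocytes Pycard was at 318 CPM in the WT library (310 to 326) and 288 CPM in APP/PS1 (279 to 297), where neutrophil free RNA would give 1.39 and 0.979 CPM. Casp1 was at 71.1 and 74.7 CPM, about 30.7 and 33.4 times its free-RNA level, and higher than in neutrophils of the same library. Nlrp3 was at 149 and 133 CPM and Casp4 at 79.2 and 76.0 CPM, both lower than in neutrophils and above their free-RNA levels. Nonclassical monocytes, the patrolling subset, had 156 and 147 CPM of Pycard, 92.1 and 93.0 CPM of Nlrp3 and 61.4 and 66.1 CPM of Casp1.

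The Il1b level in monocytes depended on whether called doublets were kept. It reached 1357 CPM in the WT library and 1252 CPM in APP/PS1 classical monocytes, where free RNA would give 976 and 834 CPM, and 2188 and 2081 CPM in nonclassical monocytes, where it would give 1481 and 1557 CPM. A classical monocyte held a median of 3 Il1b UMIs in either library and a 95th percentile of 52 in APP/PS1 and 56.25 in WT. Scrublet called 15.2% of WT and 7.69% of APP/PS1 classical monocytes doublets, and without them Il1b was at 709 and 881 CPM, where free RNA would give 337 and 539 CPM. In nonclassical monocytes without called doublets it was at 1047 and 858 CPM, where free RNA would give 455 and 413 CPM. Its log2 ratio in classical monocytes thereby went from -0.12 to 0.31.

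Between the libraries, Il1r2 was the member past the fold in monocytes. Over classical and nonclassical monocytes together it had 83.4 CPM in the WT library and 53.2 CPM in APP/PS1, a log2 ratio of -0.65, where 4.02% of 11156 genes were past the fold in that direction, 3.18% were past it in the other and 7.21% in either. The free-RNA levels were 58.8 and 35.4 CPM. Without called doublets the ratio was -0.37, and with the cell filters set over both libraries together it was -0.40, so it was no longer past the fold. In classical monocytes it was -0.73, and it was 1 of 9 members past the fold (4.03% of 10308 genes lower, 3.55% higher, 7.58% either way). In nonclassical monocytes it was -0.57 and again 1 of 9 (4.28% of 9879 genes lower, 3.27% higher, 7.55% either way). Without called doublets it was at -0.31 in classical and -0.48 in nonclassical monocytes, within the fold in both. Of the other members, Il18rap had the lowest ratios, -0.46 in classical and -0.31 in nonclassical monocytes, at levels of 11.3 to 25.3 CPM beside free-RNA levels of 9.07 to 17.9 CPM. Without called doublets Il18rap in nonclassical monocytes had 95 and 40 UMIs and a ratio of -0.56, past the fold. Casp4 was at 0.29 (0.13 to 0.45) in nonclassical monocytes.

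Outside the monocytes, Il18rap stood above its free-RNA level in NK cells, basophils and T cells, and Pycard, Casp1 and Casp4 in lymphocytes. Natural killer (NK) cells, which respond to IL-18, had 551 CPM of Il18rap in the WT library (516 to 588) and 515 CPM in APP/PS1 (489 to 542), 29.2 and 27.9 times the free-RNA level, and after thinning 41.4% and 43.1% of NK cells had a UMI. Basophils had 426 CPM in the WT library and 529 CPM in APP/PS1, with intervals that overlapped those of NK cells only in APP/PS1. Pycard was at 261 and 288 CPM in NK cells, 231 and 320 CPM in T cells and 144 and 133 CPM in B cells. Casp1 was at 49.8 and 48.8 CPM in NK cells, 13.5 and 10.7 times its free-RNA level, and Casp4 at 46.9 and 48.7 CPM in B cells, 6.17 and 10.2 times.

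In T cells Il18rap was the member past the fold upward. Il18rap had 285 UMIs (135 CPM, 120 to 152) in WT and 484 UMIs (211 CPM, 193 to 231) in APP/PS1 T cells, a log2 ratio of 0.65 (0.43 to 0.86), past the fold that 6.51% of 7377 genes passed in that direction and 6.47% in the other. Pycard had a log2 ratio of 0.47 (0.30 to 0.64) and stayed within the fold. The larger T cell cluster, led by Cd8b1 and Cd8a, held 338 WT and 467 APP/PS1 cells. The smaller, led by Il7r, Trdc and Rora, held 90 and 75 cells. The ratios of Il18rap and Pycard were 0.62 and 0.55 in the larger cluster. In the smaller they were 0.33 (-0.57 to 1.25) and 0.26 (-0.08 to 0.61). NK cell markers came second in the larger cluster, with a mean log2 excess over the other cells of 2.02 beside 4.87 for T cell markers. Their part in the Il18rap ratio was not tested. Called doublets made up 19.2% of WT and 10.3% of APP/PS1 T cells, and without them the ratios of Il18rap and Pycard were 0.73 and 0.37. Those of Il1b, Nlrp3 and Casp1 were then 0.91, 1.31 and 0.69, also past the fold upward. The share of all genes past the fold was not computed for T cells without called doublets. S100a8 and S100a9 together were then at 4430 CPM in the WT library and 7388 CPM in APP/PS1. Il1r2 in T cells was past the fold at -0.50 (6.47% of genes lower), at 62.5 and 44.0 CPM and thus near its free-RNA levels of 51.9 and 41.3 CPM, and was at 0.04 without called doublets.

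Basophils, blood granulocytes of allergic responses, had a high Nlrp3 level. It was 526 CPM in the WT library (456 to 604), above the neutrophils of that library, and 377 CPM in APP/PS1 (299.9 to 468), overlapping them, at 13.1 and 10.7 times the free-RNA level. The 73 WT and 43 APP/PS1 basophils gave 200 and 82 Nlrp3 UMIs and a log2 ratio of -0.48 (-0.87 to -0.10), within the fold that 20.6% of 1591 genes passed in either direction (8.11% higher, 12.4% lower), and 0 of the 4 members with 50 UMIs there were past it. Without called doublets Nlrp3 was at -0.53 (-0.93 to -0.14) and thus past the fold. The share of all genes past it was not computed for basophils without called doublets. Erythroid markers in basophils summed to 14678 CPM in the WT library and 386 CPM in APP/PS1, and their part in the ratio was not tested. Basophils also held 24 and 12 UMIs of Il1rap, 63.1 and 55.2 CPM, which is 5.63 and 5.97 times the free-RNA level.

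In the remaining types most members lay near their free-RNA levels. In B cells 3 of 7 members with 50 UMIs, Il1b, Il1rn and Il1r2, were past the fold, all lower in APP/PS1 (8.88% of 6292 genes lower, 5.66% higher, 14.5% either way), and S100a8 there was at 4724 CPM in the WT library and 2408 CPM in APP/PS1. In erythroid cells 5 of 8 members with 50 UMIs were past the fold, all higher (22.5% of 2875 genes higher, 4.66% lower, 27.2% either way). S100a8 there was at 12215 and 14305 CPM, and the free-RNA level of Il1b at 2766 and 3967 CPM. The 5 members, Il1b, Il1rn, Il1rap, Nlrp3 and Casp4, were at 1.06 to 1.45 times their free-RNA levels in WT and 1.15 to 1.58 times in APP/PS1. In NK cells 1 member was past the fold, Nlrp3, at 42.6 and 62.0 CPM and a log2 ratio of 0.54 (6.05% of 7240 genes higher, 3.91% lower, 9.96% either way), against free-RNA levels of 39.9 and 49.1 CPM. In plasma cells, where S100a8 was at 33673 and 20006 CPM, 0 of 8 members were past it (23.0% of 2169 genes in either direction, 16.2% higher, 6.82% lower). Il1b there was at 7542 and 8488 CPM, not in the direction of S100a8. Without called doublets the members past the fold changed. They were then Il1r2 lower and Nlrp3 higher in B cells, Il1r2 lower in NK cells, Il1r2 and Il1rn lower in plasma cells and Il1b, Il1rn and Nlrp3 higher in erythroid cells. For these types the share of all genes past the fold was not computed without called doublets. The part of free RNA in these differences was not tested.

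**Figure D4:**
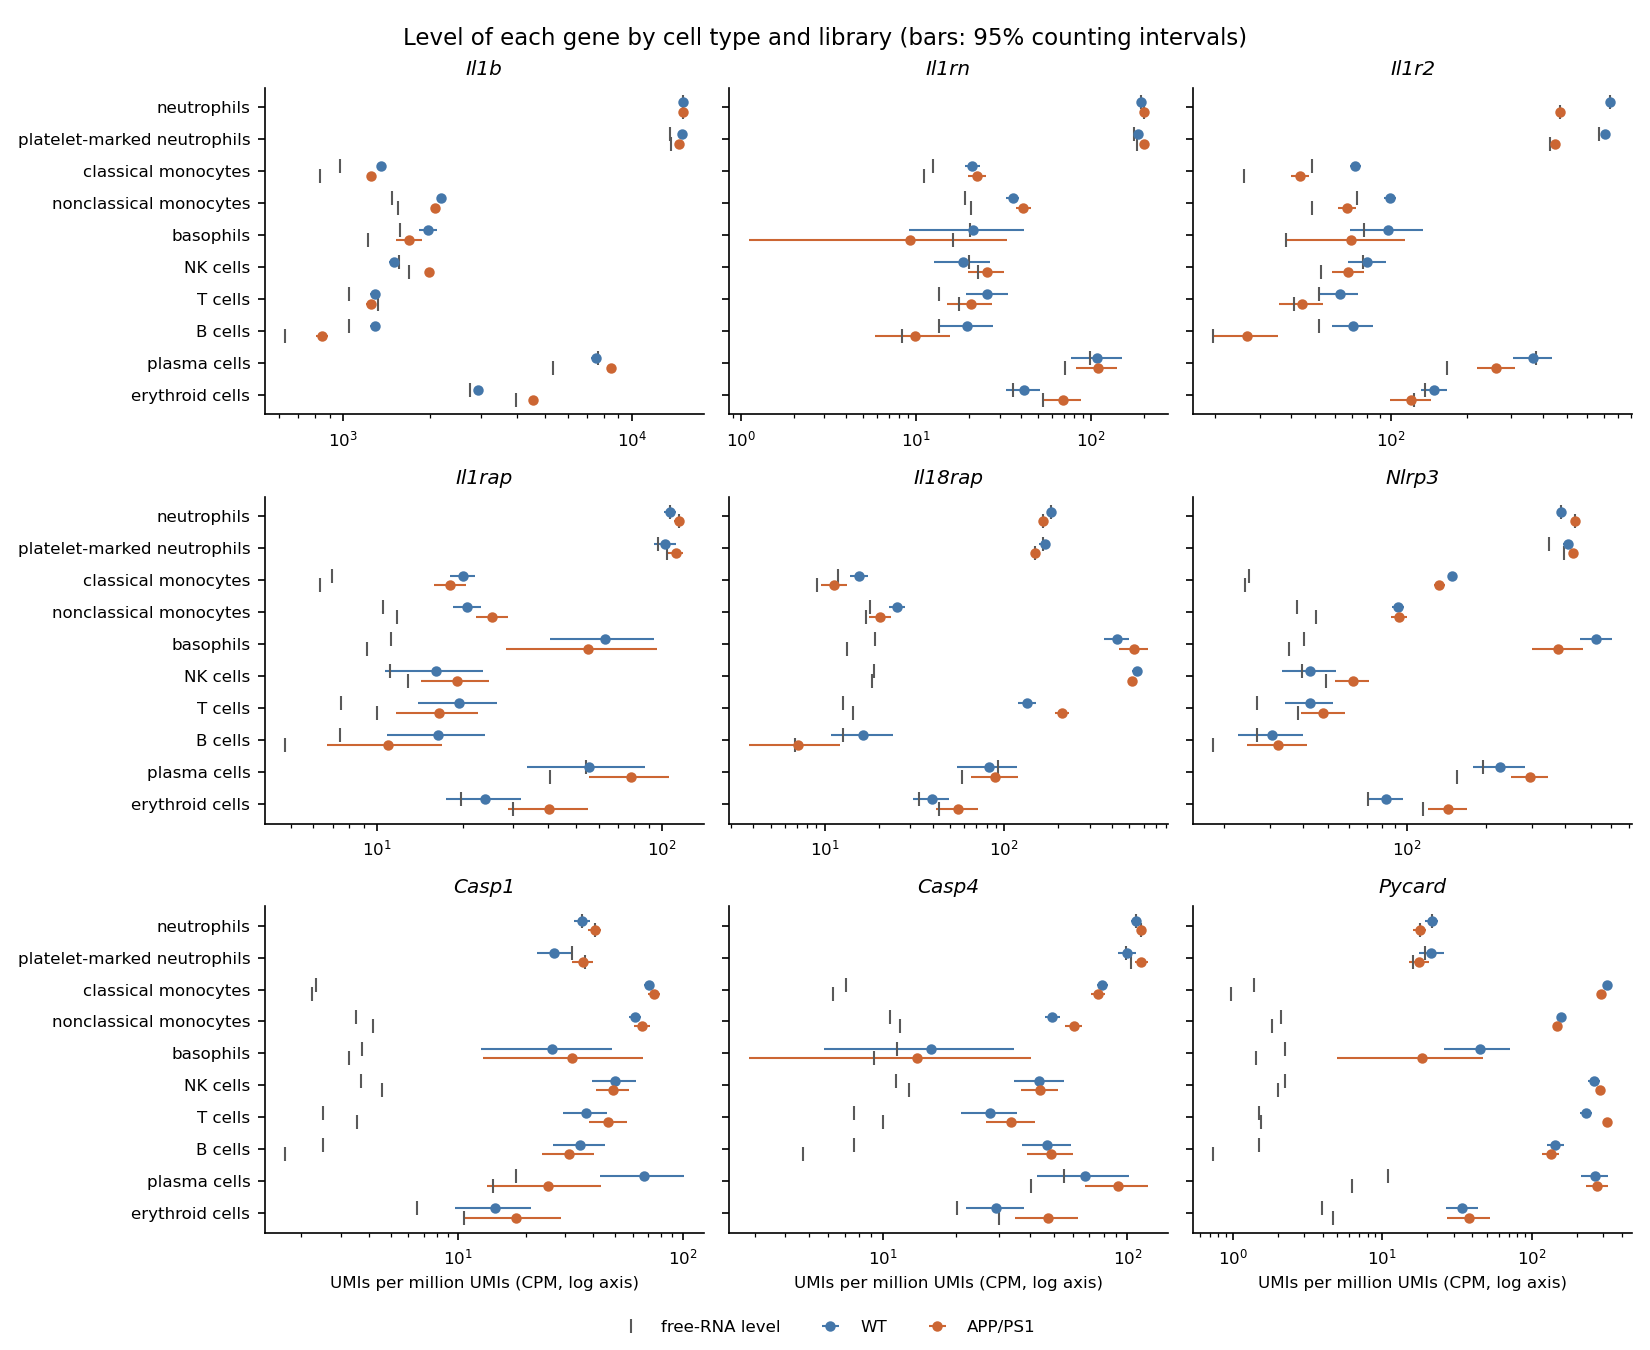
Level in CPM (x axes, log scale) of the 9 genes in 10 cell types (rows) of each library. Points are summed UMIs, bars are 95% counting intervals and grey ticks are the level that neutrophil free RNA alone would give; Il1b in B, T and NK cells lies near its tick, while Pycard in monocytes and lymphocytes and Il18rap in NK cells and basophils lie far to the right of it.

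Genes around the members in the IL-1 pathway were mostly within the fold. Of 31 listed IL-1 family, receptor and signalling genes, 30 were in the table and 18 had 50 UMIs in neutrophils. There, 0 were past the fold, beside 10.7% of all genes, and their median log2 ratio was 0.06, beside 0.06 for all genes. Il1f9, the ligand IL-36γ, was the other IL-1 family ligand with a clear neutrophil level, at 326 CPM in the WT library and 357 CPM in APP/PS1 (0.13, 0.08 to 0.18). Myd88, the adaptor of IL-1 receptor signalling, was at 163 and 194 CPM (0.25), and Irak3, a brake on that signalling, at 41.1 and 42.8 CPM (0.06). Il1a had 24 and 21 UMIs in neutrophils, and Il18 was higher in classical monocytes than in neutrophils (6.85 and 8.63 CPM), at 33.8 and 27.9 CPM (-0.28). In monocytes 1 of 18 tested genes was past the fold, Il18bp, the soluble antagonist of IL-18, at 102 and 45 UMIs (-0.55). Of all genes there, 4.02% were past it downward and 3.18% upward.

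Of 43 listed inflammasome sensors, effectors and regulators, 41 were in the table and 34 had 50 UMIs in neutrophils, where 4 were past the fold upward and 3 downward, beside 6.21% and 4.52% of all genes. Gbp5, a guanylate-binding protein induced by interferon, had 26 UMIs in WT and 141 UMIs in APP/PS1 (2.15, 1.54 to 2.82), and Nlrp1b, an inflammasome sensor, 74 and 180 UMIs (4.45 and 8.87 CPM). Nlrc3 (23 and 44 UMIs, 0.65, -0.11 to 1.45) and Nlrc5 (0.54) were the others that were higher. Cd14, the co-receptor for lipopolysaccharide, was lower at 1028 and 348 CPM (-1.56), as were the sensor gene Nlrp1a (-0.53) and Tmem176b (53 and 44 UMIs, -0.55, -1.17 to 0.05). In monocytes Cd14 was also lower, at 327 and 130 CPM (-1.33), with Pstpip1 (-0.77) and Nlrp1a (-0.74), and of 39 tested genes 0 were past the fold upward and 3 downward, beside 3.18% and 4.02% of all genes. The pore former Gsdmd was within the fold in neutrophils at 54.4 and 60.3 CPM (0.15), as was the DNA sensor Aim2 at 27.6 and 26.3 CPM (-0.07). Nlrc4, also on this list, had 4 and 2 UMIs in neutrophils and 13.3 and 14.8 CPM in monocytes.

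Il1b is a known target of NF-kB, and 32 immediate early and NF-kB target genes were set beside the members. In neutrophils 8 were past the fold upward and 2 downward, beside 6.21% and 4.52% of all genes. Upward were the transcription factor genes Jun (0.88), Egr2 (0.84), Egr1 (0.70) and Fos (0.62), the RNA decay factor Zfp36 (0.76), Icam1 (0.64), Sod2 (0.58) and Ier2 (0.50). Downward were Cd83 (-0.60) and the chemokine Cxcl2, from 4069 CPM in the WT library to 2763 CPM in APP/PS1 (-0.56). The median of the 32 genes was 0.13, beside 0.06 over all genes. In monocytes 5 were past it upward, Jun (1.24), Ccl3 (1.14), Atf3 (0.59), Ccl4 (0.53) and Zfp36 (0.52), and 2 downward, Ier3 (-0.70) and Bcl2a1b (-0.55), beside 3.18% and 4.02% of all genes.

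Of the genes within 500 kb of Il1r2 on chromosome 1, 7 had 50 UMIs in neutrophils, Il18rap among them. Their median log2 ratio was -0.06 and 1 was past the fold, Creg2, with 19 UMIs in WT and 54 in APP/PS1 (1.22). Lower in APP/PS1 were the kinase gene Map4k4 (-0.26), Il18rap (-0.14), Rnf149 (-0.11) and Il18r1, the other chain of the IL-18 receptor (-0.06). Higher, beside Creg2, were the overlapping Gm16894 (0.48, 0.20 to 0.75) and Il1rl1 (0.48, -0.30 to 1.29). Around Il1b 1 of 9 genes was past the fold (Ckap2l, -0.78), around Nlrp3 1 of 8 (Flcn, 0.51), around Pycard 2 of 21 (Armc5, 0.59, and Phkg2, -0.50), around Il18rap 1 of 5 (Il1r2 itself), and around Il1rn and Il1rap 0 of 4 and 0 of 1. Casp1 and Casp4 had each other as the 1 neighbour with 50 UMIs. Of all genes in neutrophils, 10.7% were past the fold in either direction.

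Across the 20 combinations of cell type and library, the genes most like each member were found by the correlation of log2(CPM + 10) among 8896 genes. These points share libraries and free neutrophil RNA, and the correlations are a description. Il1b was most like Mmp9, Mirt2 and Slc40a1 (r = 0.99 for each), Il1rn like Csf3r (0.99), Cd33 and Lrg1 (0.98 each), Il1r2 like Basp1 (0.99), S100a8 (0.99) and S100a9 (0.98), and Il1rap like 2310001H17Rik, Lyst and Ccr1 (0.98 each). Nlrp3 was most like Lilrb4a (0.99), Hk3 and Gsn (0.98 each). Il18rap was most like Nbeal2, Hcst (0.91 each) and Rab37 (0.89), Casp4 like Gm15448, Slc35f5 and Kdm7a (0.91 each), Casp1 like Cnot8, Atf6b and Ndufb8 (0.90 each), and Pycard like Endog, Mrps14 and Wdr61 (0.95 each). Pycard and Nlrp3, which act in the same complex, had r = -0.64.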

How the data were processed

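UMI counts per gene and cell, not normalized, had been deposited by the authors for every barcode that Cell Ranger 5.0.0 called a cell on mm10 (submitters' processing notes). Within each library the lowest and highest 5% of cells by UMIs and by genes (percentiles 5 and 95), cells with over 10% mitochondrial UMIs and genes in fewer than 3 cells were removed. Cells were clustered in R 4.3.3 with Seurat 5.3.0 (2000 variable features without the members and pathway genes, 15 principal components, resolution 0.2) and named by markers; the naming rule was written after the clusters had been looked at. Neutrophils were clustered again with anchors between the libraries at resolution 0.25. Members, pathway genes and genes that differed by over 0.5 log2 between the libraries were left out of those features. Members and gene lists were chosen with earlier results of these data known. UMIs were summed per library and type (Python 3.11.15, numpy 2.4.6, scipy 1.17.1, pandas 2.3.3), and genes with 50 UMIs over both libraries were counted. With 1 library per genotype no test was made. The ratio and interval code was tested on simulated data. Doublets were called by Scrublet (scanpy 1.11.5, expected rate 8%). Its threshold for WT, 0.2167, was used for both libraries, since the APP/PS1 threshold called 0 cells, and it called 1548 WT cells (9.04%) and 1286 APP/PS1 cells (7.29%), which stayed in the main values. The genes named are the 9 members, listed genes past the fold of 0.5 (up to 12 per list and type), 9 fixed genes, the 3 genes most like each member and neighbours past the fold. Map4k4, Rnf149, Il18r1, Il1rl1 and Gm16894 were named after their values were seen. Ratios were also computed under other cell filters, clusterings, scalings (edgeR 4.0.16 TMM), thinning to 1000 UMIs and doublet removal. Protein sequences were not analysed here.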

Additional observations from a re-analysis of the deposited data

Results flagged for a closer look

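In 4 cases a member had a ratio between the libraries in 1 cell type whose counting interval lay on the other side of 0 from the interval in neutrophils, at a level at least 2 times what neutrophil free RNA would give. With 1 library per genotype the difference between cell types was not tested against the spread between mice.

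Il18rap had a log2 ratio, APP/PS1 over WT, of 0.65 in T cells and of -0.14 in neutrophils. Pycard had 0.47 in T cells and -0.27 in neutrophils. Nlrp3 had -0.17 in classical monocytes and -0.48 in basophils, against 0.19 in neutrophils. Without called doublets the ratios were 0.73 for Il18rap and 0.37 for Pycard in T cells, and -0.53 for Nlrp3 in basophils, past the fold. Nlrp3 in classical monocytes was then at -0.09 (-0.19 to 0.00), where the interval included 0. In nonclassical monocytes Nlrp3 was at 0.01 (-0.11 to 0.14) in the main values. Without called doublets Nlrp3 was there at -0.27 (-0.44 to -0.09), within the fold and on the other side of 0 from neutrophils.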

How the results depend on the processing

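No paired analysis was possible because each genotype has 1 library, and for the same reason no replicate could be left out. Il1r2 was the member past the fold in neutrophils under every alternative tried there, with log2 ratios from -0.70 to -0.64. In the main values 10.7% of all genes were past it in either direction. Adding the platelet-marked cells and leaving out barcodes found in both libraries were chosen after seeing the data. In monocytes 1 member was past the fold, beside 7.21% of all genes in the main values. There were 0 when called doublets were removed and 0 with percentiles over both libraries together. Il1r2 was then at -0.37 and -0.40, and the cause was not tested. Of 266 comparisons of a value with an alternative, 43 fell outside the counting interval of the main value, among them the shares of positive cells, which rise without thinning. Il1b in monocytes ranged from -0.17 to 0.15 and Nlrp3 from -0.15 to 0.01, so neither direction was fixed. No other member was past the fold in either cell type under any of these alternatives, with both monocyte types pooled. Removing called doublets also put Nlrp3 in basophils (-0.53) and Il18rap in nonclassical monocytes (-0.56) past the fold. The share of all genes past it was not computed for these types without called doublets. At the thinned depth Pycard and Casp1 were found in few neutrophils, and low expression and limited depth cannot be told apart there.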
